A study of Mus musculus with 9 samples.

Results

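Collagens are the main structural proteins of the extracellular matrix. The collagen genes described here are the protein-coding mouse genes whose symbol has the form of a collagen chain (Col, a type number, a and a chain number), 44 of the 47643 genes in the deposited counts. They were divided by the form their protein takes into 11 fibrillar collagens, 8 basement membrane collagens and 25 others. The libraries came from primary pancreatic ductal adenocarcinoma (PDAC) cells sorted by FACS from mouse tumors, 6 libraries from KPF mice, of GFP+Yap+ cells, and 3 from KPYYF mice, of Tm+Yap− cells, each named below by its mouse number. Among their alleles, KPF mice carry Trp53 frt/+, Pdx-Flp and R26 FSF-CreER/Dual, and KPYYF mice carry the same alleles and Yap flox/flox. In both, Flp driven by Pdx1 in the pancreas deletes the frt allele of Trp53 and switches on EGFP in the tumor cells. Tamoxifen (TAM), fed only once tumors had become palpable, then removes EGFP, turns on tdTomato (Tm) and, in KPYYF cells only, deletes Yap. By the paper's account, the sequenced cells came from relapsed nodules in KPF or KPYYF tumors after TAM. The KPF libraries hold GFP+ cells that had not recombined and the KPYYF libraries hold Tm+ cells. Genotype, loss of Yap, recombination, reporter color and growth as a relapse after loss of Yap thus change together between the groups. They cannot be told apart. The comparison asks how the transcripts of relapsed tumor cells without Yap differ from those of tumor cells that keep it, and here which collagen chains they hold.

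A collagen molecule is a helix of 3 chains, either identical or from related genes. Fibrillar collagens (types I, II, III, V, XI, XXIV and XXVII) have a long helix as their main part, which is shorter and interrupted in types XXIV and XXVII. Types I, III and V together form the banded fibrils of connective tissue, and types I and III make up much of the dense stroma for which PDAC is known. Type IV collagen forms the network of the basement membrane beneath epithelia and around vessels, and types XV and XVIII sit at or near it. The others include beaded filaments (type VI), anchoring fibrils (type VII), hexagonal networks (types VIII and X), collagens that attach to fibril surfaces and collagens that span the cell membrane. Fibroblasts and pancreatic stellate cells are the usual makers of fibrillar collagen, and epithelial cells are known makers of types IV, VII and XVIII.

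Gene reads numbered 8116539 to 9635514 per library, and collagen genes took 0.0861 to 0.630% of them in KPF and 0.239 to 0.444% in KPYYF libraries. Of all reads counted, on genes or not, 43.8 to 48.5% aligned to more than 1 place in KPF libraries. In KPYYF libraries 4449, 4891 and 4938 this was 49.2, 51.9 and 53.4%. Reads on genes were 38.5 to 42.0% in KPF and 37.3, 38.2 and 37.7% in KPYYF libraries. The groups did not overlap in either share, and the part of this in the levels was not tested. Levels are CPM, the reads of a gene relative to all gene reads of the library, scaled by TMM, and a count of 0 allows up to 0.292 to 0.437 CPM, by 3 counts and the depth of each library. Yap1, the deleted gene, was at 41.8 to 151 CPM in KPF libraries and at 0.712, 2.84 and 7.12 CPM in KPYYF libraries 4449, 4891 and 4938 (log2 fold change of -4.79, standard error, SE, 0.72, edgeR adjusted p = 0.0159). KPF libraries 4504h and 4504s carry the same mouse number. Xist had at least 1000 reads in KPF libraries 4435, 4504h and 4504s and in the 3 KPYYF libraries and at most 159 in the other KPF libraries. Epithelial markers (Epcam, Cdh1, Krt8, Krt18, Krt19) summed to 2774 to 6957 CPM in KPF and 500.2 to 1305 CPM in KPYYF libraries, with 5 of 5 lower and 2 of them, Cdh1 and Krt18, past an adjusted p of 0.05. Fibroblast markers summed to 157 to 1031 CPM in KPF and 289 to 1510 CPM in KPYYF libraries, with 7 of 10 higher and 0 past the threshold. Of 10 pericyte and smooth muscle markers 3 were higher and 7 lower, of which 1, Cspg4, rose and 0 fell past the threshold, and their sums were 36.4 to 367 and 82.9 to 294 CPM. Endothelial markers summed to 24.5 to 104 and 23.3 to 46.4 CPM, with 7 of 8 tested lower, and immune markers to 435 to 9541 and 391 to 748 CPM, with 9 of 9 tested lower, and 0 of either list passed the threshold. KPF library 4601 held the 9541 CPM of immune markers, and the next highest library, KPF 4504s, 1521 CPM. Of 6 Schwann cell markers, Sox10, Foxd3 and Cdh19 had no read, and S100b, the only one tested, fell (adjusted p = 0.0357). Of the 14105 genes tested, 0.305% were higher and 0.794% lower at an adjusted p of 0.05 in edgeR. The log2 fold change was above 0 in 46.7% of them. In bulk RNA, fewer cells of a type and less RNA per cell cannot be told apart.

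Of the 44 collagen genes, 28 had at least 100 reads over the 9 libraries and were tested, 10 fibrillar, 6 basement membrane and 12 others. None passed an adjusted p of 0.05 in edgeR's quasi-likelihood test, 0 higher and 0 lower, against 0.305% and 0.794% of the 14105 genes tested. At an unadjusted p of 0.05, 1 collagen was higher (Col24a1) and 3 were lower (Col27a1, Col11a2 and Col4a1), 3.57% and 10.7% of the 28. Col11a2 had reads in KPF libraries only and passed the filter through them. The shares over all genes tested were 6.10% and 10.0%, so the shares of collagens lay below or near the background. DESeq2 called 0 higher and 1 lower, Col27a1 (backgrounds 1.91% and 6.58%), and limma-voom 0 and 0 (0.305% and 0.312%). At an unadjusted p of 0.05, DESeq2 gave 1 higher and 3 lower (backgrounds 6.32% and 13.0%) and limma-voom 2 and 2 (7.48% and 7.99%).

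The published methods count a gene as differential at p < 0.05 and above 2-fold, without saying whether p was adjusted, and the unadjusted p of edgeR, not an exact test, was used here. On that basis Col24a1 was higher and Col11a2 and Col27a1 were lower (3.57% and 7.14% of 28, against 4.20% and 9.20% of all genes). Without KPF library 4269, 4435, 4515 or 4601 or KPYYF library 4449 or 4891, 0 were higher. The number lower was 1, Col27a1, without KPF 4504h, 4504s or 4515 or KPYYF 4449, and 5 without KPYYF 4891, which added Col11a1, Col12a1, Col1a2 and Col4a1 and dropped Col11a2. The share of all genes passing this rule is not given for these fits. The counts thus have no background and are no result about collagens.

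The log2 fold change was above 0 in 17 of the 28 collagens (60.7%, against 46.7% of all genes tested), and their median was 0.31, against -0.067. The classes differed in this description. The median was -0.10 in the fibrillar collagens, with 5 above and 5 below 0, and -0.16 in the basement membrane collagens, with 3 and 3. In the others it was 0.57, with 9 above and 3 below 0. The fibrillar median moved in both directions with single libraries, to -1.55 without KPYYF 4891 and to 0.69, 0.60 and 0.13 without KPF 4504s, 4504h or 4515. With no filter on low counts, which lets in the collagens seen only in KPF libraries, 20 of 43 collagens were above 0 (against 40.4% of all genes) with a median of -0.45, and the median of the others was -0.75. The median of all genes in that fit was -0.31. In limma-voom, 12 of 28 collagens were above 0 (against 44.9%), with a median of -0.17 (all genes -0.11) and a fibrillar median of -1.08. Without KPYYF 4891, 12 of 27 were above 0 (against 45.4%), with a median of -0.077 (all genes -0.11). In libraries with at least 1000 Xist reads, 13 of 26 were above 0 (against 51.8%), with a median of -0.0019 (all genes 0.034). The median of all collagens stayed above 0 in the remaining alternatives.

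**Figure D1:**
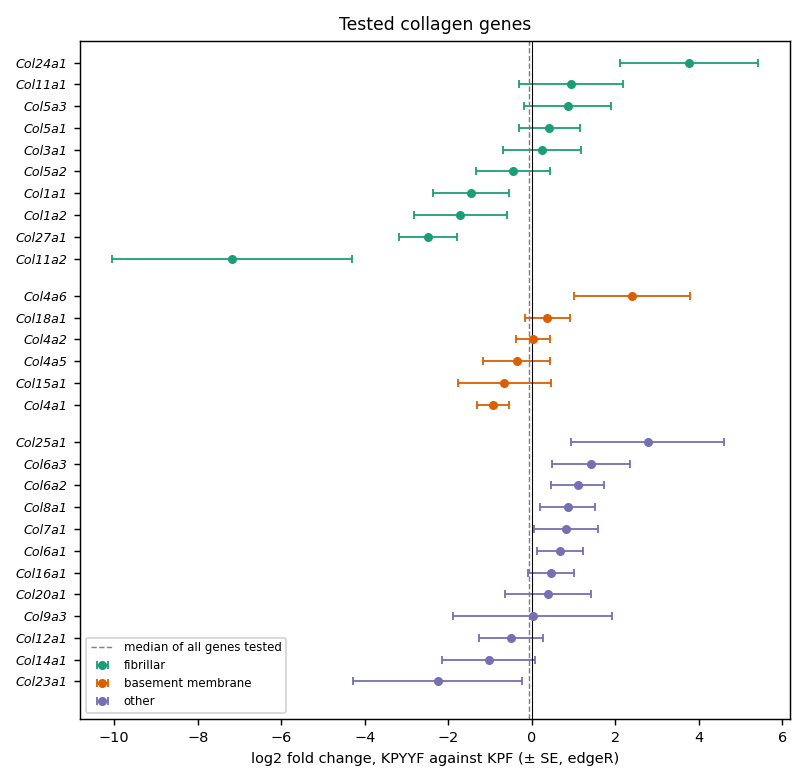
The plot gives the edgeR log2 fold change of KPYYF against KPF (x axis) with its standard error for each of the 28 tested collagens, grouped as 10 fibrillar, 6 basement membrane and 12 other, and the dashed line marks the median of all genes tested, -0.067. Fibrillar collagens spread from -7.17 (Col11a2, with no read in KPYYF libraries) to 3.77 (Col24a1), and 9 of the 12 others lie above 0.

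Col27a1 (ENSMUSG00000045672, chromosome 4 from 63214004 to 63334991, plus strand, GRCm38) was the collagen with the smallest p value. It encodes the single chain of type XXVII collagen, a fibrillar collagen known best from cartilage. Its level was 66.3 to 291 CPM in KPF libraries, with a median of 139.7 CPM, and 16.4, 7.22 and 61.7 CPM in KPYYF libraries 4449, 4891 and 4938. The groups did not overlap, the closest libraries being KPYYF 4938 at 61.7 and KPF 4504h at 66.3 CPM. The group means were 159 ± 83.4 (SD, n = 6) and 28.4 ± 29.2 CPM (SD, n = 3), a log2 fold change of -2.48 with an SE of 0.70. The unadjusted p in edgeR was 0.00456 and the adjusted p 0.119, and the exact two-sided permutation test of log2 CPM gave p = 0.0119, the smallest that 6 against 3 libraries allow. Both tests take KPF 4504h and 4504s, which carry the same mouse number, as separate libraries, so these p values can be too small. In the 9 fits that each left out a library, the log2 fold change ran from -3.75 to -2.02, with an unadjusted p under 0.05 in 9 of 9. The adjusted p was 0.00149 in DESeq2 and ran up to 0.336 over the alternatives. No other tested collagen had groups that did not overlap, 1 of 28 lower and 0 higher, against 5.18% and 3.92% of all genes.

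The 250 bases upstream of the start of Col27a1 in RefSeq (GRCm38.p6, chr4:63215162-63215411, plus strand) are shown because this gene carried the clearest difference, with the GC box GGGCGG in capitals. The RefSeq start differs from that of the gene span given above, which begins at 63214004, so the stretch shown lies inside that span.
Col27a1: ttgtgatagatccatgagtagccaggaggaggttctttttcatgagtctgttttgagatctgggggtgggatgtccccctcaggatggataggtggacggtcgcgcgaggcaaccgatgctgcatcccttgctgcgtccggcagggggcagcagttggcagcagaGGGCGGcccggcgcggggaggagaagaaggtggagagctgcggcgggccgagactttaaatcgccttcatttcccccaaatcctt
A GC box, searched on both strands, was found in 23 of the 38 RefSeq promoters (250 bases before to 50 after a start) of 35 collagen genes and in 35.7% of all 32851 promoters. The TEAD motif CATTCC, the site of the factors through which Yap acts, was in 5 of the 38 (Col18a1, Col20a1, Col3a1, Col4a6 and Col6a2), against 14.7% of all promoters. The AP-1 motif TGANTCA was in 1 of the 38, Col6a1, against 7.81%, and the CCAAT box (CCAAT) in 13 of the 38, against 37.4%. Col27a1 held only the GC box in this window. A match of letters is a description and does not show a bound site.

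Type I collagen, the most abundant protein of fibrils, is built from Col1a1 (ENSMUSG00000001506, chromosome 11) and Col1a2 (ENSMUSG00000029661, chromosome 6). Col1a1 ran from 56.7 to 1736 CPM in KPF libraries, with a median of 753 CPM, and was at 211, 453 and 166 CPM in KPYYF libraries 4449, 4891 and 4938. Col1a2 ran from 98.0 to 1569 CPM in KPF libraries, with a median of 726 CPM, and was at 56.4, 565 and 49.2 CPM. The KPYYF levels of Col1a1 lay inside the KPF range, and those of Col1a2 in 4449 and 4938 lay below it, while 4891 lay inside. The log2 fold change was -1.46 for Col1a1 (SE 0.91, edgeR adjusted p = 0.482) and -1.71 for Col1a2 (SE 1.12, adjusted p = 0.512). Neither difference was larger than the spread between libraries, which in KPF was over 10-fold for both genes. Without KPYYF 4891, the log2 fold change of Col1a2 was -3.79, the lowest of the fits that each left out a library, and the highest was -1.23.

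Col3a1, the chain of type III collagen, which is found in fibrils with type I, ran from 78.1 to 1283 CPM in KPF libraries with a median of 346 CPM. Its KPYYF levels were 910.0, 916 and 144 CPM, inside the KPF range, and its log2 fold change was 0.24 (SE 0.93, edgeR adjusted p = 0.941). The KPYYF libraries differed among themselves here: 4449 was high for Col3a1 and low for Col1a2, 4891 was high for both and 4938 low for both.

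Type V collagen, which starts the assembly of type I fibrils, has 3 chains. Col5a1 ran from 25.4 to 295 CPM in KPF libraries (median 132 CPM) and was at 84.1, 306 and 198 CPM in KPYYF libraries. Col5a2 ran from 21.0 to 241 CPM (median 112 CPM) and was at 97.2, 145 and 10.5 CPM. KPYYF 4938 thus had the lowest Col5a2 of all 9 libraries and a Col5a1 above the KPF median. Col5a3 ran from 4.38 to 123 CPM (median 39.6 CPM) and was at 12.8, 59.3 and 237 CPM, highest in KPYYF 4938. The log2 fold changes were 0.42 for Col5a1, -0.45 for Col5a2 and 0.86 for Col5a3, with SE of 0.73, 0.88 and 1.04 and edgeR adjusted p values of 0.845, 0.864 and 0.754. The sign turned without 1 KPYYF library in each: -0.055 for Col5a1 without 4891, and 0.075 for Col5a2 and -0.65 for Col5a3 without 4938.

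Types XI, XXIV and II are found mostly in cartilage or in bone. Col11a1, a chain of type XI collagen often seen in activated tumor fibroblasts, was at 2.92 to 25.1 CPM in KPF libraries (median 6.35 CPM) and at 0.119, 58.8 and 2.19 CPM in KPYYF libraries. Only KPYYF 4891 was above the KPF range, and the other two were below it. The log2 fold change of 0.94 (SE 1.24, edgeR adjusted p = 0.780) was -3.18 without that library and -0.89 in limma-voom. Col11a2, the other chain of type XI tested, had 109 reads, all in KPF libraries: it was at 0 in KPF 4269 and 4435, at 4.70, 1.37, 4.98 and 0.875 CPM in the other KPF libraries and at 0 in the 3 KPYYF libraries. It passed the filter through KPF reads alone, so its place among the genes lower in KPYYF supports nothing. Its KPF mean of 1.99 CPM was 5.89-fold the limit of 3 counts in KPYYF libraries. This bound concerns the group mean only, since KPF 4269 and 4435 were at 0 too. The unadjusted p was 0.0292 and the adjusted p 0.243 in edgeR, and the exact permutation p was 0.167. Col24a1, a fibrillar collagen of developing bone, was the reverse. It had 26 reads in KPF libraries, with 0 to 0.146 CPM in 5 of them and 2.35 CPM in 4504h, and 167 reads in KPYYF libraries, at 10.9, 7.33 and 0.877 CPM. KPYYF 4938 lay below KPF 4504h, so the groups overlapped, and the log2 fold change was 3.77 (SE 1.65, unadjusted p = 0.0400, edgeR adjusted p = 0.277, exact permutation p = 0.0238). Col2a1, the chain of cartilage collagen, was not tested, with 12 reads, all in KPF libraries.

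**Figure D2:**
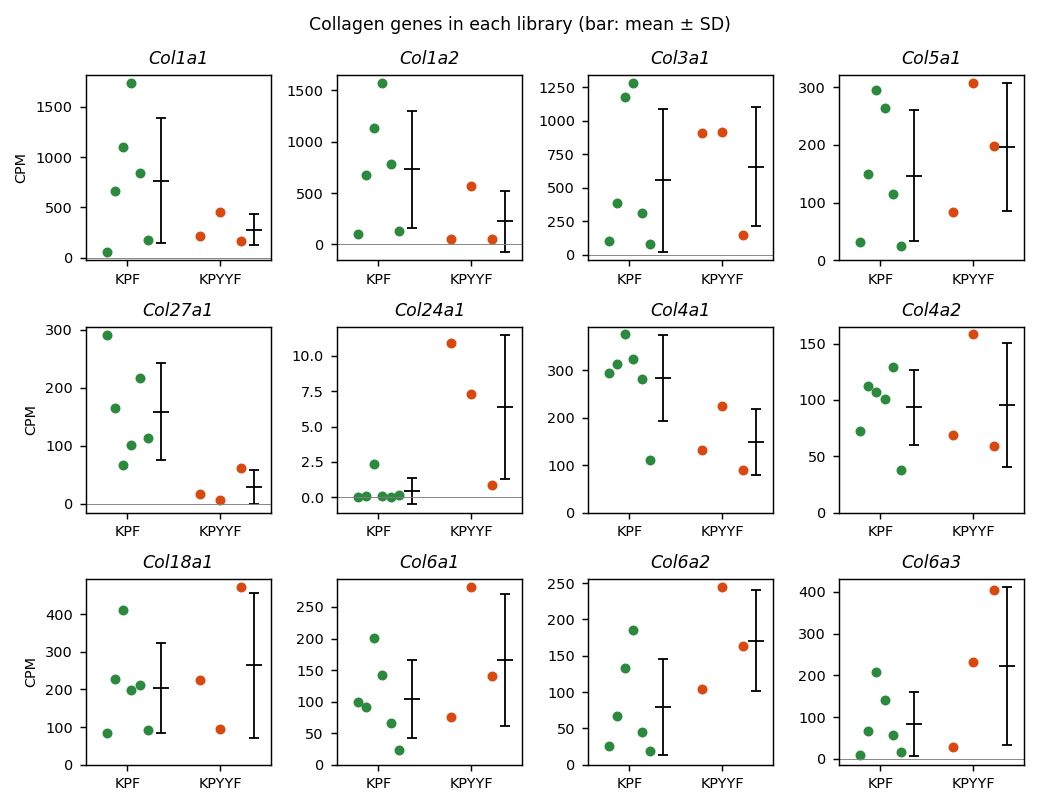
Each panel gives the TMM-scaled CPM of 1 collagen gene (y axis) in the 6 KPF and 3 KPYYF libraries, with bars for the group mean ± SD. KPF levels of Col1a1 span 56.7 to 1736 CPM around all 3 KPYYF libraries, Col27a1 is the panel in which no KPYYF library (at most 61.7 CPM) reaches a KPF library, and Col6a2 in KPYYF (105 to 244 CPM) lies above the KPF median of 56.6 CPM.

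Among basement membrane collagens, the gene with the smallest p value was Col4a1 and the largest p value was that of its partner Col4a2. The 2 chains wind together, 2 of the first with 1 of the second, into the main type IV collagen of every basement membrane. Their genes lie head to head on chromosome 8, Col4a1 (ENSMUSG00000031502) on the minus strand from 11198423 to 11312826 and Col4a2 (ENSMUSG00000031503) on the plus strand from 11312805 to 11449287, and share the promoter between them. The 22 bases in which the annotated genes overlap, at both starts, are shown because these genes are transcribed from this stretch (GRCm38.p6, chr8:11312805-11312826, plus strand), with a GC box in capitals.
Col4a1-Col4a2: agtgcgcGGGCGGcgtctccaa
Col4a1 ran from 111 to 377 CPM in KPF libraries, with a median of 304 CPM, and was at 132, 225 and 90.0 CPM in KPYYF libraries. The lowest KPF library, 4601, lay inside the KPYYF range, and the other 5, at 282 to 377 CPM, lay above it. Col4a2 ran from 37.5 to 129 CPM in KPF libraries, with a median of 104 CPM, and was at 69.0, 159 and 59.0 CPM in KPYYF libraries, on both sides of the KPF median. The log2 fold change of Col4a1 was -0.93 (SE 0.39, unadjusted p = 0.0334, edgeR adjusted p = 0.257, exact permutation p = 0.0595), and 3 of 9 fits that left out a library gave an unadjusted p under 0.05. That of Col4a2 was 0.035 (SE 0.41, adjusted p = 0.980). Transcripts are read near their 3′ end, away from the overlap at the starts.

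The other type IV chains take part in the basement membranes of particular tissues, such as the kidney. Col4a5 was at 2.77 to 26.3 CPM in KPF libraries (median 7.77 CPM) and at 6.17, 3.39 and 14.2 CPM in KPYYF libraries, with a log2 fold change of -0.36 (SE 0.80, edgeR adjusted p = 0.883). Col4a6, its neighbor on the X chromosome, was at 0 to 5.24 CPM (median 1.44 CPM) and at 22.3, 3.50 and 5.81 CPM, with 2.40 (SE 1.38, adjusted p = 0.430). KPYYF 4449 and 4938 were above every KPF library for Col4a6 and 4891 was inside their range. Col4a3 and Col4a4 had 2 and 13 reads and were not tested.

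Types XV and XVIII carry heparan or chondroitin sulfate chains and are cut to give restin and endostatin. Col15a1 ran from 1.75 to 125 CPM in KPF libraries (median 23.4 CPM) and was at 52.5, 6.89 and 21.6 CPM in KPYYF libraries, with a log2 fold change of -0.65 (SE 1.12, edgeR adjusted p = 0.842). Col18a1 ran from 84.9 to 409.9 CPM (median 205 CPM) and was at 224, 94.0 and 473 CPM, with 0.37 (SE 0.54, adjusted p = 0.806). For both genes the KPYYF libraries spread over much of the KPF range, and for Col18a1 4938 lay above it. Col18a1 overlaps Slc19a1 on the opposite strand, and whether strand was used in counting is not stated.

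Type VI collagen, whose chains assemble into beaded filaments around cells, was measured from 3 genes. Col6a1 ran from 23.2 to 201 CPM in KPF libraries (median 95.5 CPM) and was at 76.2, 282 and 141 CPM in KPYYF libraries. Col6a2, its neighbor on chromosome 10, ran from 18.9 to 186 CPM (median 56.6 CPM) and was at 105, 244 and 163 CPM. Col6a3 ran from 10.3 to 208 CPM (median 61.3 CPM) and was at 29.2, 232 and 405 CPM. For all 3 chains KPYYF 4891 was above every KPF library, and for Col6a3 so was 4938, while 4449 lay inside the KPF range for each. The log2 fold changes were 0.68, 1.10 and 1.42 for Col6a1, Col6a2 and Col6a3, with SE of 0.55, 0.64 and 0.94 and edgeR adjusted p values of 0.605, 0.439 and 0.514. These differences were within the spread between libraries, and they kept their sign in each fit without 1 library, where the lowest values were 0.066, 0.76 and 0.66. The other type VI genes, Col6a4, Col6a5 and Col6a6, had 48, 99 and 57 reads, all of them in KPF libraries, and were not tested.

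Col7a1, the chain of the anchoring fibrils that fasten epithelium to stroma, ran from 11.6 to 104 CPM in KPF libraries (median 40.1 CPM) and was at 14.2, 150.0 and 102 CPM in KPYYF libraries. Its log2 fold change was 0.81 (SE 0.77, edgeR adjusted p = 0.673). Col8a1, a chain of the hexagonal networks found under endothelium, ran from 13.0 to 123 CPM (median 67.6 CPM) and was at 109.8, 126 and 124 CPM. Its KPYYF libraries lay close together at the top of the KPF range, and the log2 fold change was 0.86 (SE 0.66, adjusted p = 0.580). Col8a1 passed an unadjusted p of 0.05 in limma-voom but not in edgeR or DESeq2.

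Among the transmembrane collagens, Col25a1 was at 0 to 1.66 CPM in KPF libraries (median 0.256 CPM) and at 7.12, 6.01 and 0 CPM in KPYYF libraries (log2 fold change 2.77, SE 1.82, edgeR adjusted p = 0.499). Col23a1 was at 0 to 9.61 CPM (median 2.11 CPM) and at 0, 0 and 1.86 CPM (-2.26, SE 2.02, adjusted p = 0.645). They had 149 and 184 reads in all, and in each the groups overlapped. Of the collagens that attach to fibrils, Col14a1, a chain bound to fibril surfaces, was at 0.615 to 30.2 CPM in KPF libraries (median 4.69 CPM) and at 7.24, 7.11 and 0.767 CPM in KPYYF libraries (-1.03, SE 1.11, adjusted p = 0.718). The other 4 tested collagens, all of this kind, had log2 fold changes from -0.49 to 0.46.

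Of the 44 collagens, 16 had fewer than 100 reads and were not tested. Of these, 12 had reads in KPF libraries only, 384 reads in all, and Col9a1 had none. Since KPF has more libraries and more reads, these counts give no test of a difference. Col17a1, the transmembrane collagen of hemidesmosomes, which tie epithelial cells to the basement membrane, had 27 reads, all in KPF library 4504s (3.08 CPM). Col28a1, named after its values were seen, had 11 reads in KPF and 52 in KPYYF libraries. It was at 0 to 0.683 CPM in KPF libraries and at 3.44, 1.09 and 1.42 CPM in KPYYF libraries, with no overlap, and without the filter its edgeR fit gave an unadjusted p of 0.153. Col13a1 had 87 reads, in 3 KPF and 2 KPYYF libraries.

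Summed over their members, fibrillar collagens were at 2539 ± 1883 CPM (SD, n = 6) in KPF and 1595 ± 842 CPM (SD, n = 3) in KPYYF libraries, and basement membrane collagens at 636 ± 259 and 554 ± 95.3 CPM. The others were at 480.2 ± 271 and 868 ± 420 CPM. The sum of all collagens was 1038 to 6754 CPM in KPF libraries and 2302, 4213 and 2538 CPM in KPYYF libraries 4449, 4891 and 4938. In each class the groups overlapped and the means differed by less than the larger SD. Fibrillar collagens made up 47.4 to 78.0% of collagen CPM in KPF libraries and 60.8, 59.8 and 34.3% in KPYYF libraries. The share of the others was 11.4 to 21.2% in KPF and 17.2, 28.6 and 39.6% in KPYYF libraries, above every KPF library in 4891 and 4938. These shares follow from the levels above and were not tested.

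**Figure D3:**
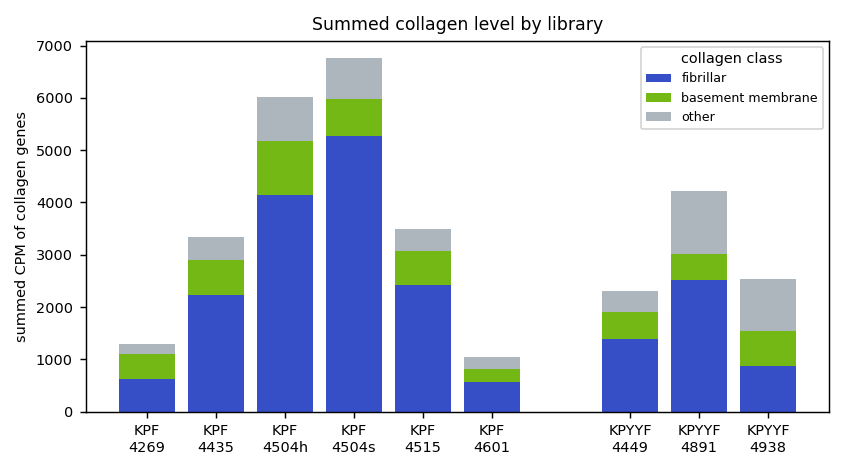
Stacked bars give the summed TMM-scaled CPM of fibrillar, basement membrane and other collagens (y axis) in each of the 9 libraries. KPF libraries run from 1038 CPM (4601) to 6754 CPM (4504s), and the 3 KPYYF libraries, at 2302 to 4213 CPM, lie between.

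The spread within KPF was shared by many collagens. Over the 28 tested genes, KPF library 4504h was the highest of the 6 in 11 genes and 4504s in 7, and both came from mouse 4504. The lowest was 4269 in 13 genes and 4601 in 9. The same libraries stood at the ends for stromal markers: fibroblast markers summed to 571 and 1031 CPM in 4504h and 4504s, to 157 CPM in 4269 and to 229 CPM in 4601. Among KPYYF libraries, 4891 was the highest in 14 of the 28 genes and had the highest sum of fibroblast markers, 1510 CPM, against 867 CPM in 4938 and 289 CPM in 4449. The part of fibroblast RNA in the collagen levels was not tested. Fibroblast markers were detected in every library, and Dcn and Lum, which belong to that list, are also matrix genes of the lists below. Dcn was the largest part of the sums named here. It was at 418 and 690 CPM in KPF 4504h and 4504s, 136 CPM in 4269 and 102 CPM in 4601. In KPYYF 4891, 4938 and 4449 it was at 641, 516 and 71.6 CPM. The sums thus follow in large part a gene of collagen fibril assembly.

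Ratios between chains of 1 collagen type, and between types III and I, which share fibrils, are less moved by the total amount of collagen RNA. The 6 ratios below, chosen after the chains' values were seen, are given as a description with no test. They are ratios of reads, not of protein chains. Col4a1 to Col4a2 was 2.18 to 4.07 in KPF libraries, with a median of 3.08, and 1.91, 1.42 and 1.53 in KPYYF libraries. It was the only 1 of the 6 ratios in which the groups did not overlap. Col1a1 to Col1a2 was 0.579 to 1.27 in KPF libraries and 3.73, 0.802 and 3.37 in KPYYF libraries, beyond the KPF range in 4449 and 4938. Col5a1 to Col5a2 was 1.15 to 1.50 in the 6 KPF libraries and 0.864, 2.12 and 18.8 in KPYYF libraries, each outside the KPF range, on both sides of it. Col3a1 to Col1a1 was 0.364 to 1.84 and 4.32, 2.02 and 0.867. The ratios of type VI chains overlapped, with Col6a1 to Col6a2 at 0.767 to 3.83 and 0.728, 1.15 and 0.863, and Col6a3 to Col6a1 at 0.103 to 1.04 and 0.383, 0.825 and 2.88. In both pairs KPF 4269 stood at an end of the range, at 3.83 and 0.103.

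**Figure D4:**
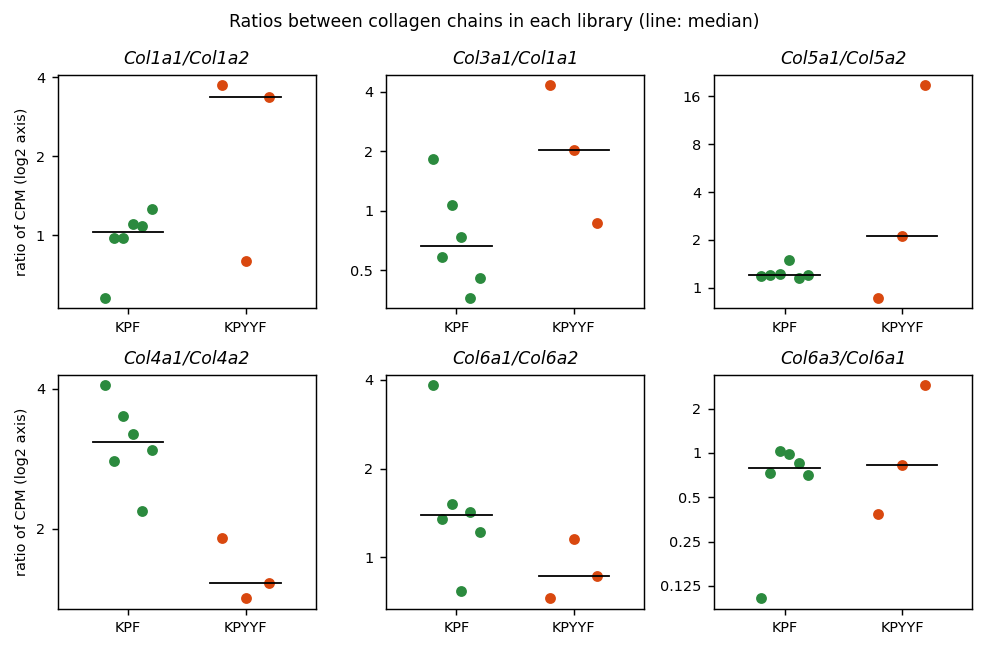
Each panel gives the ratio of CPM of 2 collagen chains (y axis, log2 scale) in the 6 KPF and 3 KPYYF libraries, with a line at the group median. Col4a1 to Col4a2 is at least 2.18 in the KPF libraries and at most 1.91 in the KPYYF libraries, and Col5a1 to Col5a2 is within 1.15 to 1.50 in KPF but spreads from 0.864 to 18.8 in KPYYF.

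Collagen chains are hydroxylated and folded in the endoplasmic reticulum, secreted, trimmed, assembled, cross-linked and bound by receptors, and of 54 genes listed for these steps 53 were found. Of the 48 tested, 24 had a log2 fold change above 0 and 24 below, with a median of -0.067, that of all genes to this precision. In edgeR, 0 were called higher and 0 lower at an adjusted p of 0.05, and 6 were higher and 7 lower at an unadjusted p of 0.05 (12.5% and 14.6%, against 6.10% and 10.0% of all genes). DESeq2 called 2 higher (Ddr2, Fkbp10) and 4 lower (Itga2, Ddr1, Bgn, P4ha3), against 1.91% and 6.58% of all genes, and limma-voom 0 and 0. In 3, Itga2, Ddr1 and P4ha3, the 3 KPYYF libraries were all below the lowest KPF library (6.25%, against 5.18%), and in 0 were all above the highest.

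The receptors gave the smallest p values of the list. Itga2, the α2 subunit of an integrin that binds fibrillar collagen on epithelial cells and platelets, was at 10.6 to 55.4 CPM in KPF libraries (median 20.1 CPM) and at 1.90, 0.109 and 2.85 CPM in KPYYF libraries. Its log2 fold change was -4.05 (SE 0.92), with an edgeR adjusted p of 0.0531 and an exact permutation p of 0.0119, and over the alternatives the adjusted p ran from 2.35e-05 in DESeq2 to 0.169. Without KPF library 4601 it passed, with an adjusted p of 0.0474. Ddr1, the discoidin domain receptor of epithelial cells, was at 117 to 317 CPM (median 143 CPM) and at 65.7, 40.1 and 86.0 CPM (-1.53, SE 0.41, adjusted p = 0.0933). Ddr2, the discoidin domain receptor of mesenchymal cells, ran the other way, at 0.292 to 37.1 CPM (median 12.4 CPM) and at 29.9, 154 and 102 CPM (2.68, SE 0.91, adjusted p = 0.177). KPYYF 4891 and 4938 were above every KPF library for Ddr2, and 4449 was within their range. Mrc2, which takes up collagen for degradation, was at 0.973 to 20.0 CPM (median 3.84 CPM) and at 36.8, 35.9 and 11.2 CPM (2.06, SE 0.85, adjusted p = 0.248). The epithelial markers named above, with 5 of 5 lower, moved in the same direction as Itga2 and Ddr1, and their part in these values was not tested.

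Among the genes of chain folding, Fkbp10, a chaperone of procollagen, was at 22.8 to 72.6 CPM in KPF libraries (median 32.3 CPM) and at 87.6, 143 and 57.6 CPM in KPYYF libraries (log2 fold change 1.32, SE 0.39, edgeR adjusted p = 0.123). P4ha3, a catalytic subunit of prolyl 4-hydroxylase, was at 3.64 to 15.4 CPM (median 7.32 CPM) and at 0.712, 0 and 1.86 CPM (-3.36, SE 1.24, adjusted p = 0.195). P4hb, the shared subunit of that enzyme, was at 576 to 815 CPM and at 474, 916 and 651 CPM (0.019, adjusted p = 0.984). Serpinh1, the collagen chaperone Hsp47, was at 88.8 to 437 CPM (median 153 CPM) and at 372, 243 and 489 CPM (0.68, SE 0.52, adjusted p = 0.578). Of the 18 tested genes of this step, 10 were above 0 and 8 below, with a median of 0.052.

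Outside the cell, Bgn, the fibril-binding proteoglycan biglycan, was at 40.2 to 894 CPM in KPF libraries (median 320.1 CPM) and at 47.7, 86.6 and 35.3 CPM in KPYYF libraries (log2 fold change -2.69, SE 0.82, edgeR adjusted p = 0.145). Only KPF 4269 lay within the KPYYF range. Without that library, Bgn passed with an adjusted p of 0.0458. Adamts14, which cuts the amino-terminal propeptide of procollagen, was at 0.0973 to 6.64 CPM (median 2.86 CPM) and at 0.831, 18.9 and 37.0 CPM (2.74, SE 1.07, adjusted p = 0.219). Lox, the cross-linking lysyl oxidase, was at 2.72 to 142 CPM (median 43.3 CPM) and at 40.1, 150.3 and 4.05 CPM (0.25, SE 1.13, adjusted p = 0.950), and its sign turned to -1.30 without KPYYF 4891. Of the 5 cross-linking genes 3 were above 0 and 2 below. Of the 11 tested genes of propeptide removal and fibril assembly 6 were above 0 and 5 below, and of the 6 of secretion 2 were above 0 and 4 below.

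**Figure D5:**
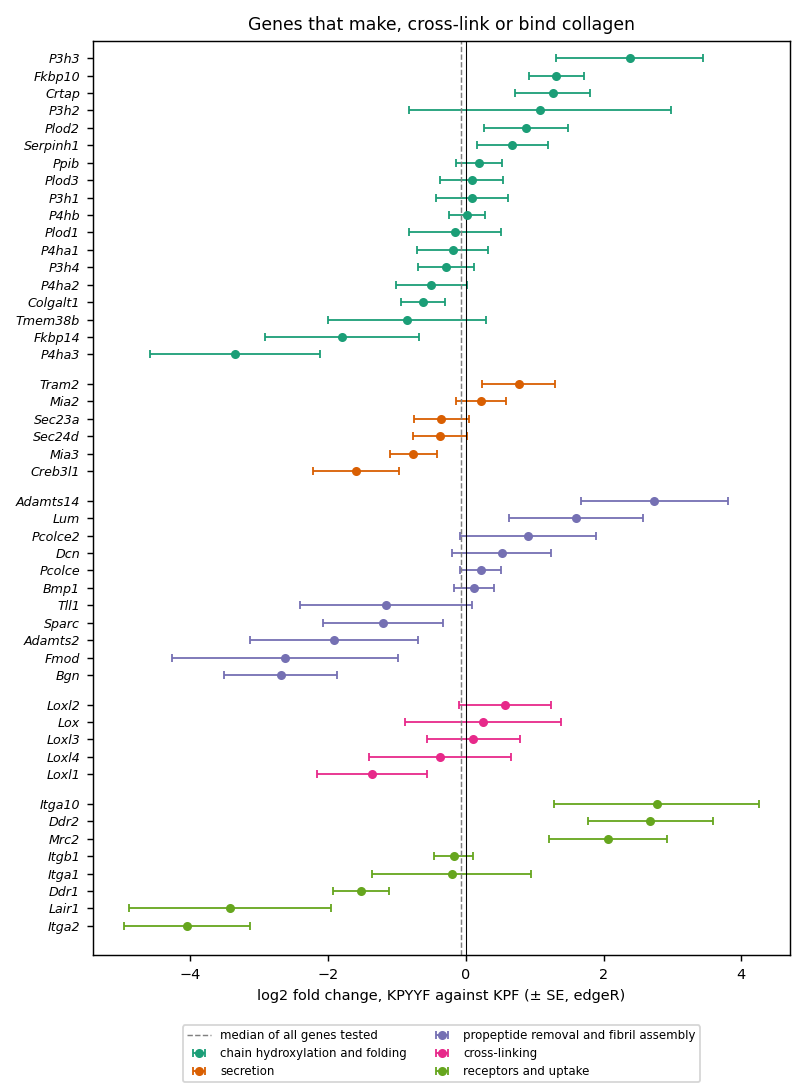
The plot gives the edgeR log2 fold change of KPYYF against KPF (x axis) with its standard error for the 48 tested genes that process or bind collagen, by step, and the dashed line marks the median of all genes tested, -0.067. Genes lie on both sides of 0 in every step, from Itga2 at -4.05 to Itga10 at 2.77.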

How the data were processed

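RNA of FACS-sorted GFP+ or Tm+ PDAC cells was made into 3′ end libraries (Lexogen QuantSeq 3′ Fwd, per the labels). The 9 deposited files each hold raw read counts per Ensembl gene for 1 library, without normalization, with 5 summary lines that were left out. The submitters' processing notes name STAR, HTSeq and mm10, without versions. The annotation and the strand setting are not given in the sources used here, and the published methods speak of BeadChip hybridization and intensity, which the whole-number counts in the files are not.

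Genes were named and placed by Ensembl identifier in GENCODE M21 (GRCm38), which matched 47224 of 47643, and promoters by symbol in RefSeq (GRCm38.p6), which matched 35 of the 44 collagen genes. The 14105 genes whose counts in the 9 libraries summed to 100 or more were compared with edgeR 4.0.16's quasi-likelihood test (TMM, robust, no covariates, R 4.3.3), and two-sided p values were adjusted by Benjamini-Hochberg over all of them. TMM factors were 0.833 to 1.08 and the common biological coefficient of variation 0.825. Standard errors were obtained as the log2 fold change over the root of its F statistic. CPM use the TMM-scaled library size, and log2 CPM a prior count of 2. Levels are counts of 3′ ends, about 1 read a transcript, and were not divided by length. Exact permutation tests used all 84 splits into 6 and 3 libraries. A count of 0 was read as up to 3 counts. These limits cover counting error only. The labels do not give the sort or culture behind each library beyond its mouse number, so p values measure the spread between these libraries.

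Alternatives were RLE scaling, DESeq2 1.42.0 (the tool of the published methods), limma-voom with quality weights (limma 3.58.1), no filter, libraries 4504h and 4504s summed, only libraries with at least 1000 Xist reads, and each library left out. The edgeR, DESeq2 and limma-voom fits were checked on simulated counts, where DESeq2 made more false calls than the others. The members, the lists of pathway and marker genes and the tests were chosen with earlier results of these data known. Named collagens are the 8 with the smallest p in each class and the main chains of types I, III, IV, V, VI, VII, XVII and XVIII. Named pathway genes are the 4 with the smallest p in each direction and Serpinh1, P4hb, Lox, Ddr1 and Ddr2. Col28a1, Col13a1, Col2a1, Itga10 and the genes given only as counts of reads were named after their values were seen. Figures were drawn with matplotlib 3.10.9. One allele that both groups carry is not reported here.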

Additional observations from a re-analysis of the deposited data

Results flagged for a closer look

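In 32 values of KPF libraries the gap of the highest or lowest library to its nearest neighbor was set against the whole range, on log2 CPM with a prior count of 2, with a critical ratio of 0.625 for 6 libraries, which chance passes in about 1 of 20. Both of the 2 that passed concern collagens, and at that rate chance alone can pass as many among 32 values. For Col24a1, KPF library 4504h (2.35 CPM) stood above the others, at most 0.146 CPM, with a ratio of 0.794. For Col4a1, KPF library 4601 (111 CPM) stood below the others, at least 282 CPM, with a ratio of 0.763.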

How the results depend on the processing

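With DESeq2, 1 collagen passed as lower (Col27a1), and of the pathway genes 2 passed as higher and 4 as lower. By the rule of the methods, collagens higher were 2 with 4504h and 4504s summed (Col24a1, Col6a2), 2 with limma-voom (Col24a1, Col8a1), 0 in libraries with at least 1000 Xist reads and 0 to 1 with each library left out. Collagens lower were 1 with limma-voom, 4 without the filter, where Col6a5 and Col8a2 came in, 4 in libraries with at least 1000 Xist reads (Col1a1, Col1a2, Col27a1, Col4a1) and 1 to 5 with each library left out. The share of all genes under this rule is not given for these alternatives, so these counts have no background. At an adjusted p of 0.05, pathway genes lower were 2 without the filter (Ddr1, Itga2), 1 in libraries with at least 1000 Xist reads (Bgn) and 0 to 1 with each library left out (Bgn without KPF 4269, Itga2 without KPF 4601). Of all genes, 219 of 22925 were lower without the filter and 31 of 13077 in libraries with at least 1000 Xist reads. There were 86 of 13821 without KPF 4269 and 116 of 13793 without KPF 4601. The fibrillar median ran from -1.55 to 0.69 with each library left out and was -1.08 in limma-voom. The median of the others was -0.75 without the filter. The median of all collagens, 0.31 in the main fit, was -0.45 without the filter and -0.17 in limma-voom. The medians of all genes in these 3 fits were -0.067, -0.31 and -0.11. The cause was not tested, except that no filter adds genes with reads in KPF libraries only. Signs turned in limma-voom for Col11a1 (-0.89), Col3a1 (-0.21), Col4a2 (-0.020) and Lox (-1.02). In libraries with at least 1000 Xist reads they turned for Col18a1 (-0.061), Col3a1 (-0.53), Col4a2 (-0.14), Col4a5 (0.058), Col5a1 (-0.25), Lox (-0.42) and P4hb (-0.12). With each library left out, the log2 fold change ran from -3.18 to 1.52 for Col11a1, -1.58 to 0.051 for Col15a1, -0.36 to 0.78 for Col18a1, -0.077 to 0.72 for Col3a1, -0.54 to 0.29 for Col4a2, -1.09 to 0.19 for Col4a5, -0.055 to 0.78 for Col5a1, -1.09 to 0.075 for Col5a2, -0.65 to 1.39 for Col5a3, -1.30 to 0.84 for Lox and -0.25 to 0.22 for P4hb. Of the values of 35 named genes under the alternatives, 479 kept their sign and side of the threshold, 12 passed it and 27 changed sign. No paired analysis was possible because the labels give the libraries mouse numbers and no number that KPF and KPYYF libraries share. With a biological coefficient of variation of 0.825 and 3 libraries in 1 group, a missed threshold does not show that a collagen was alike in both, and collagens with under 100 reads were limited by depth.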
